A study of Mus musculus with 9 samples.

Results

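The genes described here move cargo between the endoplasmic reticulum (ER), where secreted proteins are made, and the Golgi. They encode the COPII coat of vesicles that leave the ER, the COPI coat of vesicles that return to it, and the cargo receptors, retrieval receptors, tethers and SNAREs that work with both coats. 36 genes were chosen from the 46958 genes of the deposited count table. They were chosen by name for these roles and not for their values, though with earlier results of these data known. All 36 were found, and all 36 were among the 14199 genes that passed edgeR's filter on low counts.

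RNA was sequenced from plasma cells, the cells that secrete antibody, which were taken from spleens with magnetic beads against the surface protein CD138. 3 genotypes were compared with 3 mice each: WT, DH-LMP2A, and kFRA, whose label adds LCDD, for light chain deposition disease, in which free light chains deposit in organs. All 9 mice were 3 months old, had received no immunization and shared 1 strain label, mixed C57/BL6x129/SVxBALB/c. Each library came from all CD138+ cells of a single spleen, and the bead fraction was not pure per the labels, so other spleen cells contributed RNA. The labels name the alleles without describing them. As background, LMP2A is a membrane protein of Epstein-Barr virus that can stand in for the B cell receptor. Whether the kFRA mice also carried DH-LMP2A is not given in the sources used here. Both had few heavy-chain counts: the 8 heavy-chain constant-region genes held 0.883% to 0.968% of a kFRA library and 1.09% to 1.16% of a DH-LMP2A library, against 21.9% to 27.1% of a WT library. Igkc, the constant region of the kappa light chain, took 26.4% to 42.2% in kFRA, 12.9% to 16.1% in DH-LMP2A and 9.47% to 12.6% in WT.

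As background, a plasma cell sends a large flow of immunoglobulin out of the ER. The small GTPase Sar1 is loaded with GTP by Preb, also called Sec12, and recruits the inner coat of Sec23 and Sec24 and then the outer cage of Sec13 and Sec31, while Sec24 and cargo receptors pick what is packed. COPI, a coat of 7 subunits recruited by ARF GTPases, carries receptors and escaped ER chaperones back, and the KDEL receptors bind those chaperones by their last residues. Several of these genes are known targets of the unfolded protein response, which acts when misfolded protein collects in the ER.

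Total counts per library ranged from 15449026 to 21558128. Levels are given as CPM, counts scaled to a common library total with edgeR's trimmed mean of M values (TMM), on which scale 3 counts, taken as the floor of detection, come to 0.127 to 0.205 CPM. All 8 plasma cell markers were detected in every library, and their summed level was 20129 to 31819 CPM in kFRA, 33885 to 46777 CPM in DH-LMP2A and 18704 to 23982 CPM in WT. The summed level of 8 erythroid markers was 1167 to 2807 CPM in kFRA, 2566 to 13641 CPM in DH-LMP2A and 39.3 to 341 CPM in WT. For 8 macrophage and monocyte markers it was 1592 to 2324, 780.1 to 2261 and 2693 to 4639 CPM, and for 8 granulocyte markers 8.75 to 27.7, 21.7 to 259 and 256 to 822 CPM, in the same order. For 8 B cell markers it was 486 to 604, 687 to 1055 and 618 to 890 CPM, and for 8 T cell markers 33.1 to 55.8, 40.6 to 82.8 and 46.7 to 99.5 CPM. No marker of these lists was at 0 in all libraries of a genotype. A sum follows its most abundant genes, and single markers of a list could differ from it. In DH-LMP2A against WT the log2 fold change was above 0 for 5 of 7 tested granulocyte markers (median 0.34). It was above 0 there for 6 of 8 T cell markers (median 0.68) and for 1 of 8 macrophage and monocyte markers (median −1.12). In bulk samples of this kind, fewer cells of a type and less RNA per cell cannot be told apart. Some libraries stood apart within their genotype. In kFRA, replicate 2 had 694 CPM of 8 cell cycle markers against 257 and 295 in replicates 1 and 3, and immunoglobulin genes took 29.2% of its counts against 44.0% and 45.4%. In DH-LMP2A, replicate 3 had erythroid markers at 13641 CPM against 2566 and 2674 and granulocyte markers at 21.7 CPM against 212 and 259. Xist, which is transcribed from the inactive X chromosome, differed within every genotype: it was at 734 CPM in kFRA replicate 2 against 1.30 and 3.14, at 4.48 in DH-LMP2A replicate 3 against 924 and 882, and at 0.459 in WT replicate 2 against 783 and 495. Counts and medians of the members that rest on kFRA or DH-LMP2A are therefore also given without kFRA replicate 2 or DH-LMP2A replicate 3.

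The 5 members that passed the test in any comparison were Preb, Kdelr1, Kdelr3, Tmed3 and Tmed10, and the sequence just upstream of each is shown so that the stretch in front of these genes can be read beside their levels. Windows of 250 bases upstream of the start site came from RefSeq (GRCm38.p6), and 31 of the 36 members had at least 1. Each printed run is 5′ to 3′ on the gene's strand and stops before any exon of GENCODE M21.
Preb, chr5:30960362-30960577, minus strand: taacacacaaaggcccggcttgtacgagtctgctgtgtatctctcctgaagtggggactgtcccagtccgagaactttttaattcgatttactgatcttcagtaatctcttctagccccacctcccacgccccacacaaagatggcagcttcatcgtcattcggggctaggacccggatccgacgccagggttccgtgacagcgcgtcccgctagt
Kdelr1, chr7:45872590-45872771, plus strand: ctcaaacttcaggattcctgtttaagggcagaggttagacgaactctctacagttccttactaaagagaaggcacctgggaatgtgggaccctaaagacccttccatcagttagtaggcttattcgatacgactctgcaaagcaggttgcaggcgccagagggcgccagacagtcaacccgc
Kdelr3, chr15:79516158-79516407, plus strand: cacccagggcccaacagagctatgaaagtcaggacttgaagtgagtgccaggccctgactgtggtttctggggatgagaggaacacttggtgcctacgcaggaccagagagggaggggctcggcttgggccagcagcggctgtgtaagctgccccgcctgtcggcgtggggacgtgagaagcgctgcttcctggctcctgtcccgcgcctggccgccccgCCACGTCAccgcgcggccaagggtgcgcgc
Tmed3, chr9:89705069-89705293, minus strand: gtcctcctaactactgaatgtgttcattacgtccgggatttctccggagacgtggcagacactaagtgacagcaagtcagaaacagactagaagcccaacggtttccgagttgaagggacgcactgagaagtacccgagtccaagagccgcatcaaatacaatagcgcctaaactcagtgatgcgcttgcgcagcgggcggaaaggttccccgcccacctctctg
Tmed10, chr12:85374848-85374967, minus strand: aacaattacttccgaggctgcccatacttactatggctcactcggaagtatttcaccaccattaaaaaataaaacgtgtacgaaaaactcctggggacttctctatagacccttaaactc

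The capitals in Kdelr3 mark the core of the unfolded protein response element, TGACGTGG, here on the strand opposite to the gene and 23 to 30 bases before the start site. On either strand of the whole 250-base windows, this core was found in 4 of the 31 members with a window (12.9%), against 0.603% of the 27025 genes that have one. Those 27025 genes were not limited to the genes tested here and were not matched to the members in level or base composition. The shares therefore compare unlike sets, and an excess in the members was not tested. The other 3 members were Sec24d, Copb1 and Arf1, shown with the core in capitals and 11 bases to each side.
Sec24d, chr3:123267459-123267488, plus strand: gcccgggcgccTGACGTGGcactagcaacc
Copb1, chr7:114254690-114254719, minus strand: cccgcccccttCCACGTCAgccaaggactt
Arf1, chr11:59228228-59228257, minus strand: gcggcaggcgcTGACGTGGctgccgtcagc
In these 3 genes the core lay within an exon of the same gene in GENCODE M21, while in Kdelr3 it lay outside every exon. The ER stress response element (CCAAT and CCACG with 9 bases between) was found in 0 of the 31 members and in 0.13% of all genes, and the ER stress response element II (ATTGG and CCACG with 1 base between) in 0 of the 31 and in 0.037%. Both end in CCACG, which the core also holds on its other strand. The cyclic AMP response element, TGACGTCA, was found in 1 member, Cope, and in 1.77% of all genes. These matches describe letters only, and of the 4 genes with the core, 1 (Kdelr3) passed the test in a comparison.

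Compared per kilobase of deposited exon length, the members lay between the 55.7th and the 97.4th percentile of the genes tested by their mean over the 9 libraries. That length covers the annotated exons of a gene, and which transcripts were present was not tested. The order of genes on this scale therefore depends on the annotation. Small membrane proteins and an ARF led. Tmed9, a p24 cargo receptor, was at 149 CPM per kb, Arf1 at 146, Tmed10 at 124, the cargo receptor Surf4 at 109 and Kdelr1 at 108. The 7 COPI subunits, which are built into 1 complex, ranged from 19.2 CPM per kb for Copg1 to 68.9 for Cope. The deposited lengths of these 2 genes were 11011 and 3353 bases, and their means in CPM were 211 and 231. In the COPII coat the paralogues were unequal: Sec24c was at 48.5 CPM per kb, Sec24d at 28.1, Sec24a at 10.6 and Sec24b at 6.92, and Sec23b at 19.1 stood above Sec23a at 8.39. Kdelr3 was the lowest member at 4.86 CPM per kb, against 53.6 for Kdelr2. From Tmed9 to Arf1 and from Kdelr1 to Tmed2, neighbours in this order, the means differed by less than the SD of the higher gene over the 3 mice of any genotype. This did not hold for all neighbours. Arf1 and Tmed10 differed by more than the SD of Arf1 in DH-LMP2A (5.99) and WT (15.3), though not in kFRA (26.1).

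**Figure D1:**
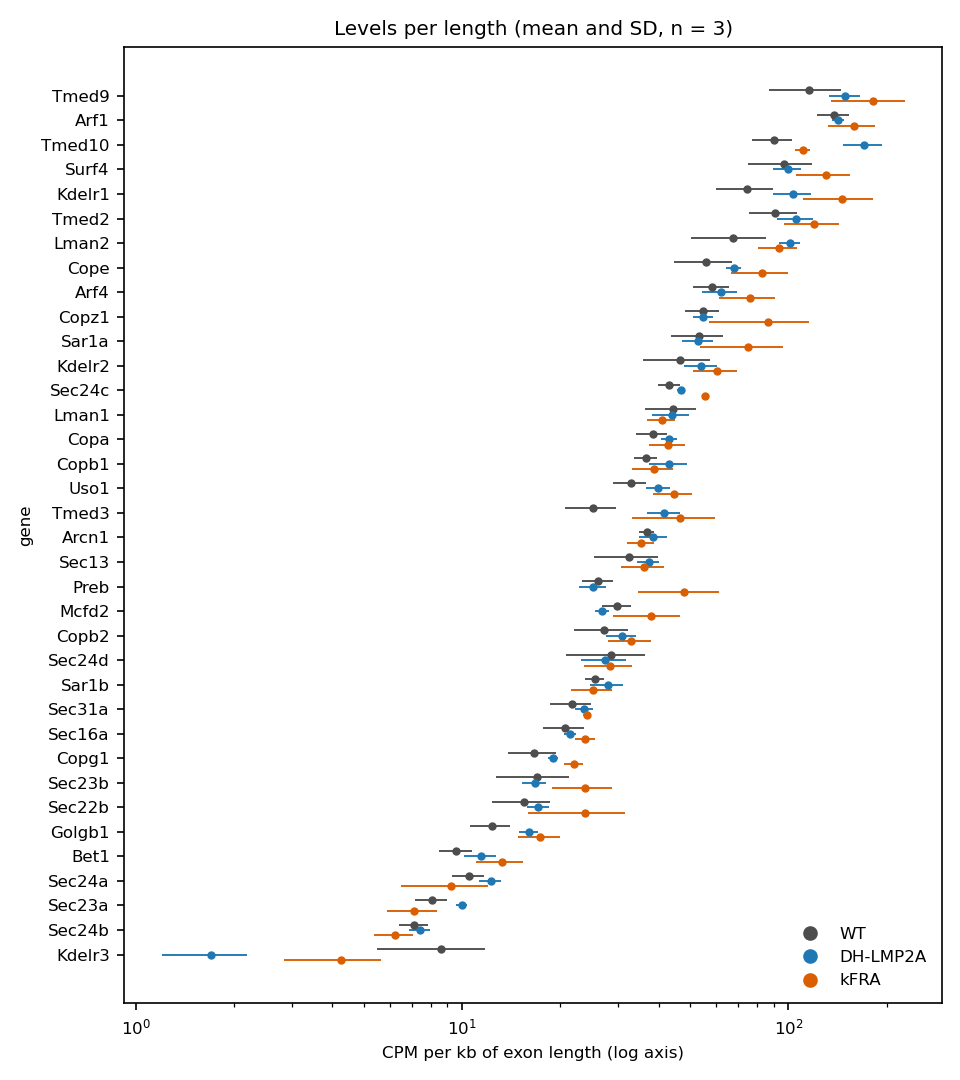
Mean level of each of the 36 genes per genotype in CPM per kb of exon length (x axis, log scale), with bars of 1 SD over 3 mice and genes ordered by their mean over the 9 libraries. Tmed9 and Arf1 stand at the top and Kdelr3 at the bottom, where its 3 genotypes also lie farthest apart.

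As a group the 36 genes took a mean share of the counts outside immunoglobulin genes of 1.23% in kFRA (SD 0.120), 1.06% in DH-LMP2A (SD 0.0774) and 0.997% in WT (SD 0.144), each over 3 mice. It was 1.29% in kFRA without replicate 2 and 1.08% in DH-LMP2A without replicate 3. Few single genes passed the test. In kFRA against DH-LMP2A, 1 member was higher and none lower (edgeR quasi-likelihood test, Benjamini-Hochberg adjusted p under 0.05), where 1.73% of all genes tested were called higher, 3.3% lower and 5.02% in either direction. In kFRA against WT, 3 members were higher and none lower, where 6.68% of all genes were called higher, 11.1% lower and 17.8% either way. In DH-LMP2A against WT, 1 member was higher and 1 lower, where 5.07% of all genes were called higher, 7.3% lower and 12.4% either way. Called members in either direction made up 2.78%, 8.33% and 5.56% of the 36. Against a background of this size, counts of 1 to 3 members are not a result about the members as a group. Members at an unadjusted p under 0.05 numbered 8, 15 and 5, or 22.2%, 41.7% and 13.9% of the 36, where 22.4%, 35.0% and 26.6% of all genes were. Without DH-LMP2A replicate 3, no member passed in kFRA against DH-LMP2A (3.59% of all genes were called) and the same 2 passed in DH-LMP2A against WT (9.3%).

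The medians lay above those of all genes. The median log2 fold change of the members was 0.16 in kFRA against DH-LMP2A, 0.37 in kFRA against WT and 0.16 in DH-LMP2A against WT, beside −0.005, −0.04 and −0.01 over all genes tested. The medians of the members depended on single libraries. In kFRA against DH-LMP2A the median was 0.31 without kFRA replicate 2, 0.28 without DH-LMP2A replicate 1, 0.19 without DH-LMP2A replicate 3 and 0.08 without kFRA replicate 1, and 0.01 with the markers of other spleen cells as a covariate. In kFRA against WT it ran from 0.30 to 0.53 over the 9 fits that each left out 1 library, highest without kFRA replicate 2. In DH-LMP2A against WT it ran from 0.08 without WT replicate 2 and 0.09 without DH-LMP2A replicate 1 to 0.23 without WT replicate 3, and was 0.20 without DH-LMP2A replicate 3. The fitted value was above 0 for 25, 28 and 29 of the 36 members, where 49.3%, 47.3% and 49.1% of all genes were. Most changes were small: 30, 28 and 32 members lay within 0.5 of 0 on the log2 scale, and 1 in each comparison, Kdelr3, lay beyond 1. The SE of a member's log2 fold change ran from 0.119 to 0.362 with a median of 0.177. The 3 comparisons share libraries, so they are not independent of each other. With library size alone in place of TMM, the median of all genes moved to −0.14, 0.17 and 0.33 and that of the members to 0.01, 0.58 and 0.51, and the share of all calls that were higher moved from 34.4%, 37.6% and 41.0% to 26.0%, 72.0% and 79.9%.

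**Figure D2:**
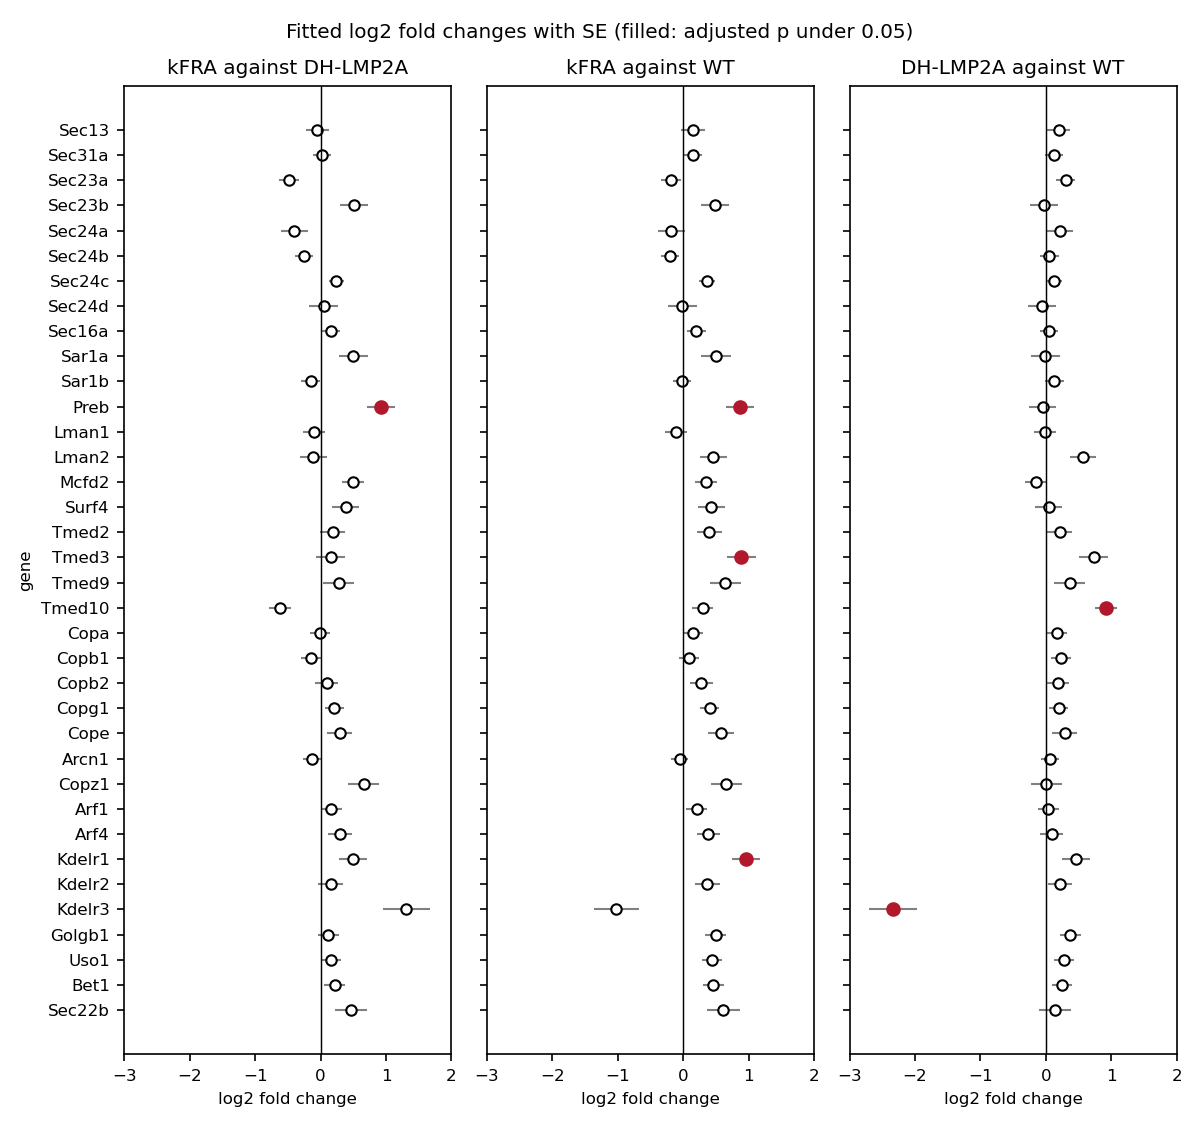
Fitted log2 fold change of each of the 36 genes (x axis) with 1 SE, in kFRA against DH-LMP2A, kFRA against WT and DH-LMP2A against WT. Filled points passed an adjusted p of 0.05: Preb in the first panel, Preb, Tmed3 and Kdelr1 in the second, and Tmed10 (higher) and Kdelr3 (lower) in the third.

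Single libraries moved most members together. Taking each gene's log2 CPM relative to its mean over the 9 libraries, the median over the members was 0.31 in kFRA replicate 1 and 0.19 in kFRA replicate 3, but −0.03 in kFRA replicate 2. In WT it was −0.22, −0.30 and 0.05 in replicates 1, 2 and 3, and in DH-LMP2A 0.15, −0.06 and −0.04, while the same median over all genes tested stayed between −0.06 and 0.03. WT replicate 3 held the highest of the WT values for 31 members, DH-LMP2A replicate 1 the highest of its genotype for 32, and kFRA replicate 2 the lowest of its genotype for 23. TMM centres the bulk of genes in each library, so the median over all genes is near 0 by construction.

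**Figure D3:**
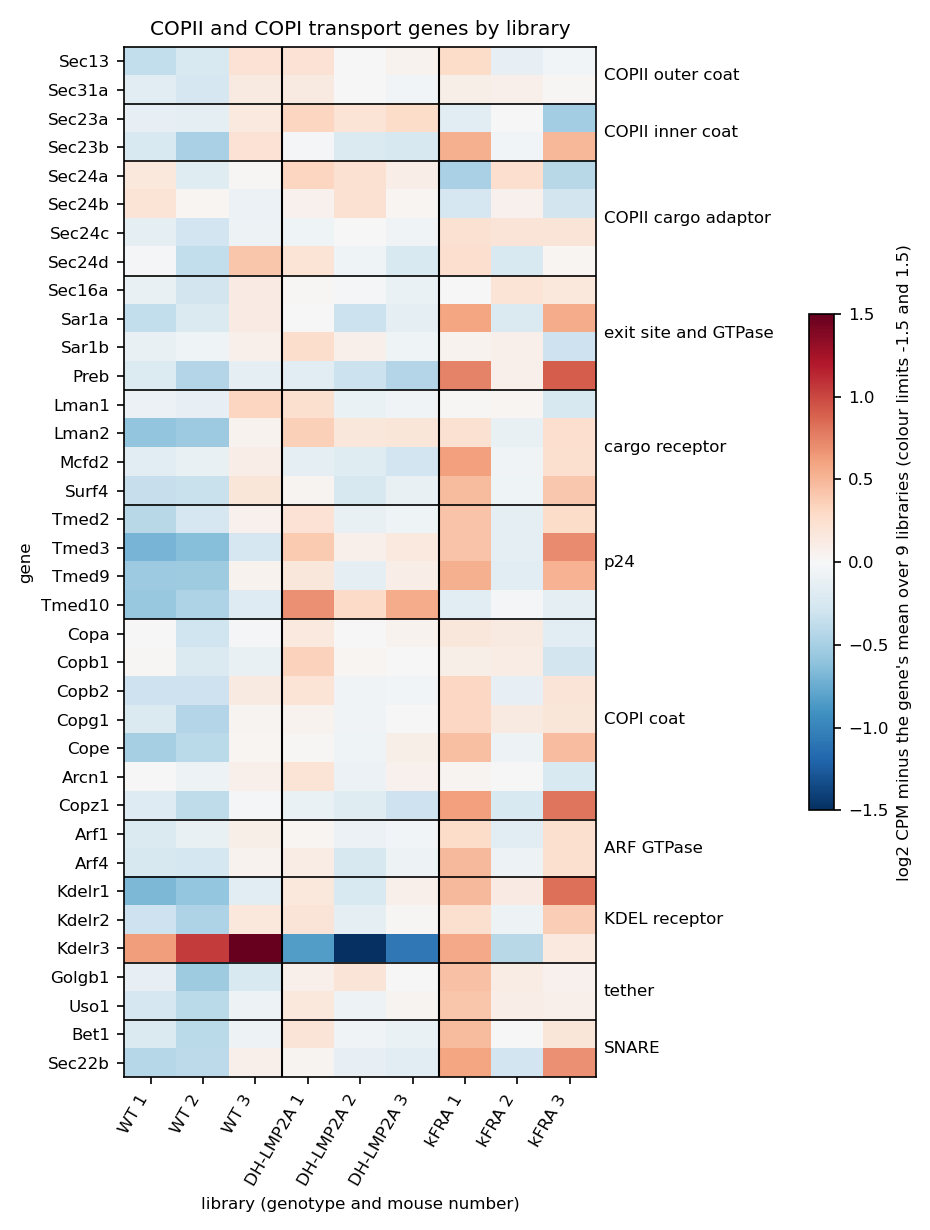
Log2 CPM of each of the 36 genes (rows, by role) in each of the 9 libraries (columns) relative to the gene's mean over all libraries, coloured from −1.5 to 1.5 with values beyond shown at the limit. Most rows are red in kFRA replicates 1 and 3 and blue in WT replicates 1 and 2, with kFRA replicate 2 near 0, and the Kdelr3 row runs from blue in DH-LMP2A to red in WT.

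At the ER exit site, Preb, the membrane-bound exchange factor that activates Sar1, was the 1 member that passed the test in kFRA against both other genotypes. Its level was 375, 237 and 421 CPM in the 3 kFRA libraries, 199.5, 180.1 and 166 in DH-LMP2A and 195, 166 and 204 in WT. The kFRA libraries were above all others, the lowest of them being replicate 2. Preb rose 1.90-fold over DH-LMP2A (log2 0.92, SE 0.21, edgeR adjusted p = 0.0401). Against WT it rose 1.83-fold (log2 0.87, SE 0.21, edgeR adjusted p = 0.0222), whereas DH-LMP2A and WT differed by −0.05 (SE 0.21, edgeR adjusted p = 0.918). The difference from DH-LMP2A passed in 1 of the 9 fits that each left out 1 library, the one without kFRA replicate 2 (log2 1.19); without any of the other 8 it did not, with edgeR adjusted p from 0.00300 to 0.158 and log2 values from 0.75 to 1.19 over all 9. Preb lies at chromosome 5, 30950853 to 30960361 (GRCm38, minus strand), and its exons overlap those of Abhd1 on the other strand. Abhd1 was at 4.24, 2.81 and 2.76 CPM in kFRA, 15.99, 14.5 and 17.0 in DH-LMP2A and 1.77, 2.86 and 1.59 in WT, far below Preb. The strand setting of the counting is not given in the sources used here, so reads from the stretch that both share cannot be assigned.

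The GTPase that Preb acts on has a pair of genes. Sar1a was at 231, 131 and 225 CPM in kFRA, 123 to 153 in DH-LMP2A and 118 to 167 in WT, so that kFRA replicates 1 and 3 stood above all other libraries and replicate 2 among them. Its differences did not pass (log2 0.50 from DH-LMP2A and 0.50 from WT, edgeR adjusted p = 0.230 and 0.154). Sar1b stayed between 26.4 and 39.3 CPM and Sec16a, the scaffold of exit sites, between 165 and 231 CPM over the 9 libraries, with overlap between genotypes in every comparison.

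In the COPII coat no subunit passed the test in any comparison. Sec23b, an inner-coat subunit that also stimulates GTP hydrolysis by Sar1, was at 169.8, 114 and 166 CPM in kFRA, 115, 101 and 99.1 in DH-LMP2A and 100.3, 83.6 and 136 in WT. Its paralogue Sec23a went the other way, at 35.5, 39.9 and 27.9 CPM in kFRA, 50.1, 46.2 and 48.3 in DH-LMP2A and 36.7, 36.6 and 44.2 in WT. For Sec23a every DH-LMP2A library stood above every kFRA library (log2 −0.49 for kFRA against DH-LMP2A, SE 0.15, edgeR adjusted p = 0.107). Among the cargo adaptors, Sec24c had the least spread: 252, 244 and 244 CPM in kFRA, 205, 215 and 206 in DH-LMP2A and 195, 175 and 204 in WT. Its kFRA libraries lay above all 6 others and its DH-LMP2A libraries above those of WT, yet the fold was 1.18 against DH-LMP2A and 1.29 against WT (edgeR adjusted p = 0.260 and 0.0607). Sec24a was at 80.0, 133 and 83.4 CPM in kFRA, lower in replicates 1 and 3 than in any DH-LMP2A (119 to 140.3) or WT library (98.6 to 124). Sec24b and Sec24d overlapped between genotypes throughout, as did the outer-coat genes Sec13 (86.2 to 134 CPM) and Sec31a (153 to 199.7 CPM), the latter with the smallest ratio of highest to lowest library of all members (1.31).

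Among the cargo receptors none passed the test. Lman2, a lectin that binds high-mannose glycans, was at 472, 415 and 417 CPM in DH-LMP2A and 245, 252 and 381 in WT, without overlap, and at 432, 339.7 and 437 in kFRA. Its log2 fold change was 0.57 in DH-LMP2A against WT (SE 0.20, edgeR adjusted p = 0.102) and 0.46 in kFRA against WT (edgeR adjusted p = 0.136). Lman1, the lectin also called ERGIC-53, showed no such difference, with 231 to 279 CPM in kFRA, 256 to 324 in DH-LMP2A and 252 to 342 in WT. Mcfd2, the partner of Lman1, was at 123, 77.6 and 95.5 CPM in kFRA, above the 66.3 to 73.3 CPM of DH-LMP2A in each library (log2 0.49, edgeR adjusted p = 0.140). Surf4, a receptor for soluble cargo, was at 485, 334 and 461 CPM in kFRA, with overlap with both other genotypes.

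The p24 proteins, membrane proteins that cycle between ER and Golgi with cargo, gave calls in both comparisons with WT, through different members. Tmed10 was at 673, 511 and 614 CPM in DH-LMP2A, 377, 414 and 381 in kFRA and 282, 304 and 367 in WT. The 3 genotypes did not overlap, with DH-LMP2A highest and WT lowest. Tmed10 rose 1.89-fold in DH-LMP2A over WT (log2 0.92, SE 0.17, edgeR adjusted p = 0.00722), and this passed in all 9 fits that left out 1 library and in all 11 other settings. In kFRA its log2 difference was −0.62 from DH-LMP2A (SE 0.16, edgeR adjusted p = 0.0673) and 0.30 from WT (SE 0.16, edgeR adjusted p = 0.223). Without DH-LMP2A replicate 3 its log2 fold change over WT was 0.91. Erythroid markers had the same order of genotypes as Tmed10, with a median log2 fold change over the 8 genes of 4.93 in DH-LMP2A against WT, 3.19 in kFRA against WT and −1.43 in kFRA against DH-LMP2A. Their summed levels overlapped between kFRA and DH-LMP2A, whereas those of Tmed10 did not. Within DH-LMP2A the erythroid sum was highest in replicate 3 (13641 CPM), and Tmed10 was highest in replicate 1. The plasma cell markers, too, had their highest summed levels in DH-LMP2A, and the part of either list alone in this result was not tested. A pseudogene, Tmed10-ps, is nearly identical to Tmed10 over 324 bases, so some reads could belong to either.

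Tmed3 was at 137, 92.1 and 167 CPM in kFRA, 134, 108 and 114 in DH-LMP2A and 63.0, 65.5 and 86.0 in WT. Every kFRA and every DH-LMP2A library lay above every WT library, while kFRA and DH-LMP2A overlapped. In kFRA against WT it rose 1.85-fold (log2 0.89, SE 0.22, edgeR adjusted p = 0.0248). In DH-LMP2A against WT the log2 difference was 0.73 (SE 0.22) and missed the threshold (edgeR adjusted p = 0.0636), and between kFRA and DH-LMP2A it was 0.16 (SE 0.22, edgeR adjusted p = 0.705). Tmed2 and Tmed9, the other p24 members of the list, had log2 values of 0.40 and 0.64 in kFRA against WT (edgeR adjusted p = 0.174 and 0.0861), with overlapping libraries. Counts of Tmed2 are uncertain because Gm10698 is identical to it over 604 bases.

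**Figure D4:**
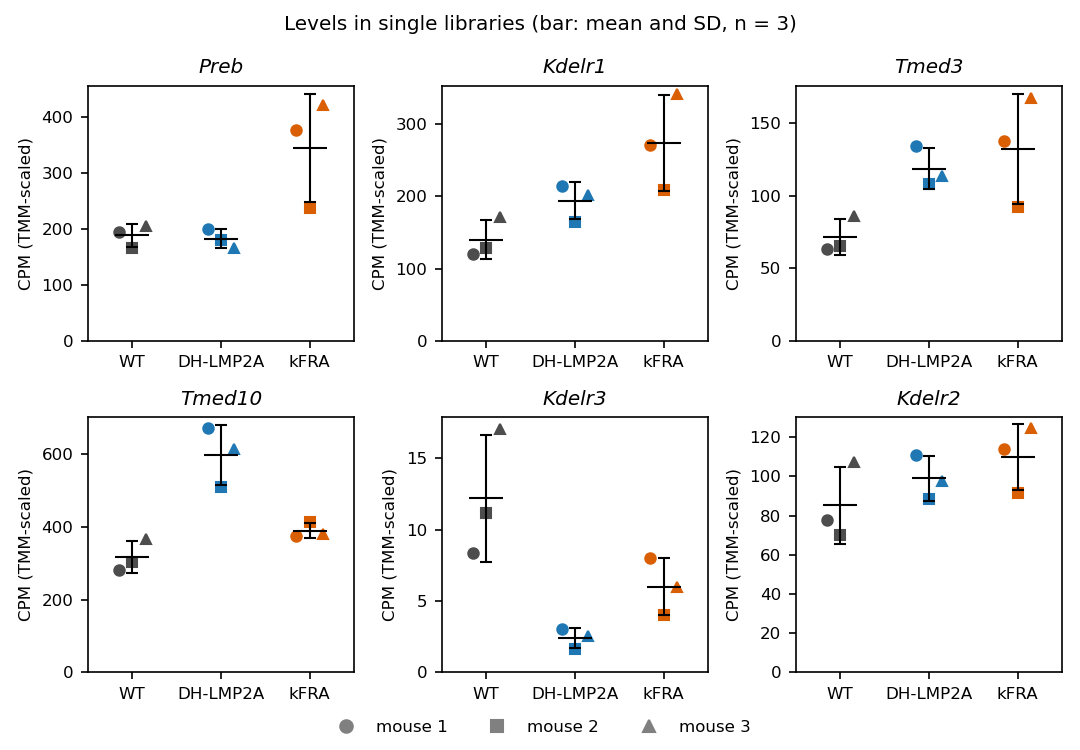
Level in CPM (y axis, from 0) of the 5 genes that passed a test and of Kdelr2 in each library, with symbols for the mouse number and bars for the mean and 1 SD of 3 mice. Preb is high in kFRA, Tmed10 in DH-LMP2A and Kdelr3 in WT, and kFRA replicate 2 is the lowest kFRA library in every panel except that of Tmed10.

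In the COPI coat and its GTPases no gene passed the test in any comparison. Copz1, the small zeta subunit, was at 160.3, 89.3 and 183 CPM in kFRA against 84.3 to 97.4 in DH-LMP2A and 80.2 to 102 in WT, so that 2 kFRA libraries were far above and replicate 2 was within the other ranges (log2 0.66 and 0.66, edgeR adjusted p = 0.152 and 0.0817). Cope, the epsilon subunit, had 2 high kFRA libraries in the same way, at 309, 215 and 311 CPM in kFRA and 228, 216 and 239 in DH-LMP2A, with replicate 2 just under the DH-LMP2A range. Copg1, the gamma subunit, had its 3 kFRA libraries (229 to 259.9 CPM) above all DH-LMP2A (202 to 217) and WT (154 to 215) libraries, by a fold of 1.16 and 1.33. Of the large subunits, Copa ranged from 317 to 438 CPM, Copb1 from 107 to 165 CPM, Copb2 from 153 to 235 CPM and Arcn1 from 191 to 258 CPM, each with overlap between genotypes in every comparison. Arf1 and Arf4, which recruit the coat, had log2 values of 0.20 and 0.38 in kFRA against WT (edgeR adjusted p = 0.386 and 0.156).

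The 3 KDEL receptors, which return ER chaperones from the Golgi, differed from each other in their pattern over the genotypes. Kdelr1 was at 270.4, 209 and 341 CPM in kFRA, 214, 165 and 202 in DH-LMP2A and 120.3, 128 and 171 in WT. The kFRA libraries lay above all WT libraries, and those of DH-LMP2A overlapped with both. Kdelr1 rose 1.95-fold in kFRA over WT (log2 0.96, SE 0.22, edgeR adjusted p = 0.0157). Its log2 difference was 0.50 from DH-LMP2A (SE 0.21, edgeR adjusted p = 0.211) and 0.47 in DH-LMP2A against WT (SE 0.21, edgeR adjusted p = 0.201).

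Kdelr3 was low everywhere and highest in WT, where Kdelr1 was lowest, at 8.36, 11.2 and 17.1 CPM in WT, 8.002, 4.04 and 5.96 in kFRA and 3.00, 1.62 and 2.56 in DH-LMP2A, which are 165 to 268, 85 to 117 and 35 to 71 counts. No library of 1 genotype overlapped with those of another. Kdelr3 fell 5.06-fold in DH-LMP2A against WT (log2 −2.34, SE 0.36, edgeR adjusted p = 0.00333), the largest change among the members, and passed in all 9 fits without 1 library and in all 11 other settings. It was −2.38 without DH-LMP2A replicate 3. In kFRA the log2 difference was 1.31 from DH-LMP2A (SE 0.36, edgeR adjusted p = 0.0740) and −1.03 from WT (SE 0.35, edgeR adjusted p = 0.0681). Kdelr3 lies at chromosome 15, 79516408 to 79527739 (GRCm38, plus strand), and shares exon sequence with Ddx17 on the other strand, which was at 229 to 272 CPM in WT, 299 to 361 in kFRA and 277 to 296 in DH-LMP2A. Ddx17 was far above Kdelr3 in level, and with the strand setting of the counting unknown, the part of its reads in the Kdelr3 counts was not tested. Macrophage and monocyte markers were likewise highest in WT. With the mean log2 CPM of all markers of other spleen cells as 1 covariate, Kdelr3 was at log2 −2.19 in DH-LMP2A against WT and Tmed10 at 0.90. Erythroid and macrophage markers moved in opposite directions there, with medians of 4.93 and −1.12. A mean over both cannot stand for either, so the part of each cell type was not tested. Kdelr2, printed because its paralogues passed, was at 114, 91.6 and 125 CPM in kFRA, 111, 88.3 and 97.8 in DH-LMP2A and 77.6, 70.3 and 108 in WT, with overlap and edgeR adjusted p of 0.660, 0.192 and 0.534 in the 3 comparisons.

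Tethers and SNAREs catch and fuse the vesicles. Golgb1 (giantin), a Golgi tether, was at 256, 204 and 198 CPM in kFRA and 174, 131 and 162 in WT, and Uso1 (p115) at 302, 242 and 238 and 190.0, 171 and 215 CPM. For both genes all kFRA libraries were above all WT libraries (log2 0.50 and 0.44, edgeR adjusted p = 0.0581 and 0.0756). The SNARE Bet1 also had all kFRA libraries above all WT libraries. It was at 58.1, 42.2 and 47.7 CPM in kFRA against 36.1, 31.6 and 39.7 in WT (log2 0.46, edgeR adjusted p = 0.0689). Its DH-LMP2A mean was 42.5 CPM (SD 4.65), with log2 0.21 for kFRA against DH-LMP2A (edgeR adjusted p = 0.439). Sec22b, the other SNARE, was at 108, 58.8 and 116 CPM in kFRA, with replicate 2 inside the WT range of 53.6 to 76.0. Its DH-LMP2A mean was 68.1 CPM (SD 5.17). Counted over all members, 9 had every kFRA library above every WT library, where 14.2% of all genes tested did, and 1, Kdelr3, had the reverse, where 20.2% did. In kFRA against DH-LMP2A the counts were 5 above (11.6% of all genes) and 2 below (13.9%), and in DH-LMP2A against WT 6 above (17.5%) and 1 below (19.1%). Leaving out a library can only raise such counts. Without kFRA replicate 2 they were 23 above (28.1% of all genes) and 4 below (34.9%) in kFRA against WT, and 18 above (26.1%) and 4 below (29.3%) in kFRA against DH-LMP2A. Without DH-LMP2A replicate 3 they were 10 above (21.5%) and 1 below (23.5%) in DH-LMP2A against WT, and 5 above (16%) and 3 below (19.7%) in kFRA against DH-LMP2A.

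The calls in kFRA depended on which mice were in the fit. Without kFRA replicate 2, 19 members were higher in kFRA than in WT and none lower, where 18.8% of all genes were called higher and 38.8% either way. They covered most roles: Sec23b, Sec24c, Sar1a and Preb of the COPII machinery, Copg1, Cope, Copz1 and Arf4 of COPI, the receptors Lman2, Mcfd2, Surf4, Kdelr1, Tmed2, Tmed3 and Tmed9, and Golgb1, Uso1, Bet1 and Sec22b. The log2 fold changes without that library were 1.15 for Preb, 1.19 for Kdelr1, 1.15 for Tmed3, 0.98 for Copz1 and 0.93 for Sec22b. Against DH-LMP2A, 8 members were then higher (Sec23b, Sar1a, Preb, Copz1, Mcfd2, Kdelr1, Kdelr3 and Sec22b) and 2 lower (Sec23a and Sec24a), where 11.7% of all genes were called higher and 22.7% either way. The fit then rests on 2 kFRA mice and borrows its spread from the other genotypes. Both of these mice had low Xist (1.30 and 3.14 CPM). It was high in DH-LMP2A replicates 1 and 2 (924 and 882 CPM) and in WT replicates 1 and 3 (783 and 495 CPM). Genotype and Xist level cannot be fully told apart in that fit, and the part of each was not tested. Conversely, the 3 calls against WT were lost without kFRA replicate 1 (8.84% of all genes called), kFRA replicate 3 (10.5%), WT replicate 1 (11.7%) or WT replicate 2 (8.8%), each of which left 0 members, while without WT replicate 3 there were 7 (14.4%). Over these 9 fits the edgeR adjusted p ran from 0.00194 to 0.0905 for Preb, 0.00472 to 0.0685 for Kdelr1 and 0.00354 to 0.0968 for Tmed3. With the log2 CPM of Xist as a covariate, chosen after the data were seen, 0 members passed in kFRA against DH-LMP2A (3.86% of all genes were called) and the same 3 in kFRA against WT (15.7%). With the markers of other spleen cells as a covariate, 0 members passed in either kFRA comparison (1.11% of all genes were called against DH-LMP2A and 7.13% against WT), and Preb was then at log2 0.82 against both DH-LMP2A and WT. Against WT, Kdelr1 was at 1.05 and Tmed3 at 0.92 in that fit (edgeR adjusted p = 0.0529 and 0.0862), beside 0.96 and 0.89 without the covariate. Preb without the covariate was at 0.92 against DH-LMP2A and 0.87 against WT. The median of the members was 0.28 against WT in that fit, beside 0.37 without the covariate. Against DH-LMP2A it was 0.01, beside 0.16. The part of other cells in these calls was not tested.

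Ratios of related genes within a library do not depend on how libraries are scaled. 13 pairs were compared in the 3 comparisons, 39 tests in all, on counts per kb, and in 16 of them the libraries of the 2 genotypes did not overlap. An exact 2-sided permutation test of 3 against 3 libraries cannot give less than p = 0.1, which these 16 reached (0.244 adjusted over the 39). How often other gene pairs separate in this way was not tested, so the 16 are not a result about these pairs as a group. Of all single genes tested, 14.2% were above and 20.2% below without overlap in kFRA against WT. These shares were 11.6% and 13.9% in kFRA against DH-LMP2A, and 17.5% and 19.1% in DH-LMP2A against WT. The ratio of Kdelr2 to Kdelr1 was 0.432, 0.449 and 0.375 in kFRA, 0.530, 0.549 and 0.495 in DH-LMP2A and 0.661, 0.561 and 0.643 in WT. It separated all 3 genotypes, lowest in kFRA. The ratio of Kdelr3 to Kdelr2 separated them too, at 0.0910, 0.0574 and 0.0622 in kFRA, 0.0353, 0.0241 and 0.0342 in DH-LMP2A and 0.140, 0.206 and 0.206 in WT.

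Lman2 over Lman1, the pair of cargo lectins, was 2.33, 1.81 and 2.81 in kFRA and 2.17, 2.41 and 2.36 in DH-LMP2A, above the 1.42, 1.49 and 1.66 of WT (log2 differences 0.59 and 0.60, the first 0.75 without kFRA replicate 2 and the second 0.59 without DH-LMP2A replicate 3). Sec23a over Sec23b was 0.272, 0.456 and 0.219 in kFRA, 0.567, 0.598 and 0.635 in DH-LMP2A and 0.476, 0.570 and 0.422 in WT. Each kFRA library lay below each DH-LMP2A library (log2 difference −0.996, or −1.30 without kFRA replicate 2), while kFRA replicate 2 lay inside the WT range and kFRA and WT overlapped. Copg2 over Copg1, the paralogues of the COPI gamma subunit, was 0.158, 0.209 and 0.163 in kFRA, below both DH-LMP2A (0.215, 0.248 and 0.251) and WT (0.278, 0.343 and 0.214). Tmed3 over Tmed10 was 0.452, 0.276 and 0.543 in kFRA against 0.247, 0.261 and 0.229 in DH-LMP2A and 0.276, 0.267 and 0.290 in WT. There kFRA replicate 2 lay within the WT range and just above that of DH-LMP2A, and replicates 1 and 3 lay far above both.

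**Figure D5:**
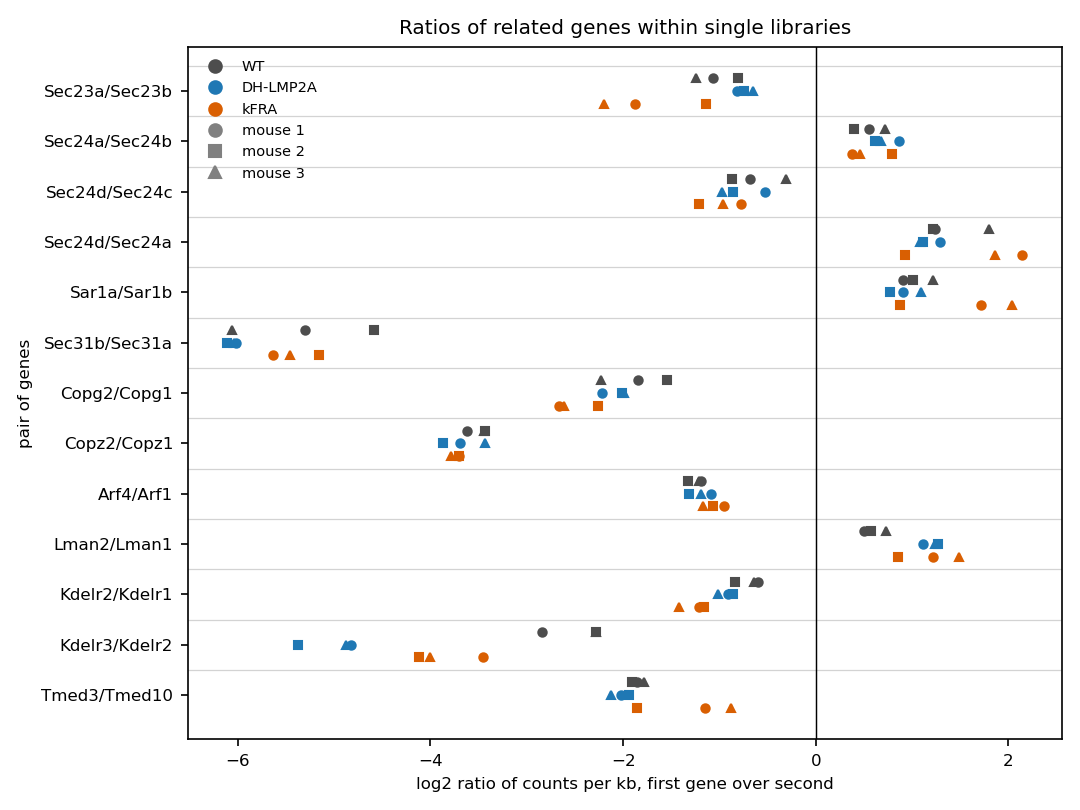
Log2 ratio of counts per kb of 13 pairs of related genes (x axis, first gene over second) in each library, with colour for the genotype and symbol for the mouse number. Kdelr2/Kdelr1 and Kdelr3/Kdelr2 separate the 3 genotypes, and for Sec23a/Sec23b and Tmed3/Tmed10 the kFRA square (replicate 2) lies next to the other genotypes.

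Other genes of the same pathways, from lists that do not hold the members, were fitted in the same way. Of 18 tested genes of a broad ER exit list, 5 were higher and none lower in kFRA than in WT. In DH-LMP2A against WT, 5 were higher and 1 lower, while 2 were lower in kFRA than in DH-LMP2A. The list also holds genes outside the coat machinery, among them Erlec1 and Creb3, and their calls are part of its counts. The counts of this and the following lists are small, and over all genes tested 6.68% were called higher and 11.1% lower in kFRA against WT, 5.07% and 7.3% in DH-LMP2A against WT, and 1.73% and 3.3% in kFRA against DH-LMP2A. Erlec1, an ER lectin, was at 199 ± 29.5 CPM (SD, n = 3) in DH-LMP2A, 110.4 ± 6.98 in kFRA and 65.3 ± 12.3 in WT, and passed in all 3 comparisons (log2 1.61 in DH-LMP2A against WT, 0.76 in kFRA against WT and −0.85 in kFRA against DH-LMP2A). Ergic3, a membrane protein that cycles through the intermediate compartment, was higher in both than in WT (log2 0.90 in kFRA and 1.34 in DH-LMP2A). Ergic1, its relative, was higher in DH-LMP2A than in WT (log2 0.92) and lower in kFRA than in DH-LMP2A (log2 −1.06). Cnih1, a cargo receptor for membrane proteins, was higher in kFRA than in WT (log2 0.69), with log2 0.39 against DH-LMP2A, which did not pass. Lman2l, a relative of Lman2, was higher in DH-LMP2A than in WT (log2 0.61). Named because they complete these counts, Mia3, which helps large cargo leave the ER, was higher in kFRA and in DH-LMP2A than in WT (log2 0.59 and 0.59), Creb3 in kFRA (log2 0.75), and Sec16b, below 1 CPM, was lower in DH-LMP2A (log2 −2.52).

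Of 17 further COPI and ARF genes none passed in kFRA against DH-LMP2A, where the smallest p-values belonged to Arfgap3 (log2 0.72), Arfgef1 (−0.43) and Copz2 (0.58). Against WT, 1 was higher and 2 lower in kFRA and 2 were lower in DH-LMP2A. Arf6, an ARF of the plasma membrane, was lower than in WT in kFRA (log2 −0.97) and in DH-LMP2A (log2 −1.03), as was Arf2 (log2 −0.61 and −0.83), and Arfgap1, which switches Arf1 off, was higher in kFRA than in WT (log2 0.36) and at 0.34 in DH-LMP2A against WT. Of 45 further SNAREs and tethers, 3 passed in kFRA against WT, all higher, and none in the other comparisons: the SNARE Stx5a (log2 0.59), Trappc6b of the TRAPP tether (0.46) and Rint1 (0.56), part of a tether for vesicles that return to the ER. The smallest p-values without a call were those of Bnip1 (log2 0.59), Vapa (0.41) and Cog5 (−0.87) in kFRA against DH-LMP2A and of Bcap31 (0.50), Yif1b (0.48) and Zw10 (0.41) in DH-LMP2A against WT. None of 6 tested further p24 genes passed in any comparison. The 3 with the smallest p in kFRA against DH-LMP2A were Tmed7 (log2 −0.46), Tmed8 (−0.46) and Tmed4 (0.24), in kFRA against WT Tmed4 (0.29), Tmed7 (−0.21) and Tmed8 (−0.24), and in DH-LMP2A against WT Tmed1 (0.33), Tmed7 (0.25) and Tmed8 (0.22).

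For comparison, 34 genes of the step before, entry into the ER and first glycosylation, gave more calls than the 36 members: 10 higher and 1 lower in kFRA against WT, 8 higher and none lower in DH-LMP2A against WT, and 2 lower in kFRA against DH-LMP2A. Their median log2 fold change was 0.47, 0.33 and 0.01 in the same order, beside 0.37, 0.16 and 0.16 for the members. Rpn2, a subunit of the oligosaccharyltransferase, was at 1234 ± 143 CPM (SD, n = 3) in DH-LMP2A, 712 ± 55.1 in kFRA and 461 ± 85.5 in WT, and Ddost, another subunit, at 1004 ± 121, 609 ± 59.9 and 352 ± 83.8 CPM. Both had the order of genotypes seen for Tmed10. Dad1 (log2 1.17 in kFRA against WT), Sec11c (0.77) and Stt3b, which was lower (−0.79), were among the calls against WT, and Spcs1 was higher in DH-LMP2A than in WT (log2 1.14). Tusc3 was lower in kFRA than in DH-LMP2A (log2 −0.88). Of 27 genes of post-Golgi and endosomal coats none passed in any comparison, with medians of −0.07, −0.09 and −0.08 in kFRA against DH-LMP2A, kFRA against WT and DH-LMP2A against WT, on the other side of 0 from the members. Clathrin heavy chain, Cltc, was at log2 −0.54 in kFRA against DH-LMP2A and −0.62 against WT. The other genes with the smallest p-values were Gga3 (log2 0.40) and Exoc4 (−0.45) in kFRA against DH-LMP2A, Snx2 (−0.56) and Vps35 (−0.59) in kFRA against WT, and Gga1 (−0.27), Ap3m1 (0.36) and Gga2 (−0.26) in DH-LMP2A against WT.

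The calls in these lists also moved with kFRA replicate 2, the only kFRA library with high Xist. Without it, 38.8% of all genes were called in kFRA against WT, and the genes higher and lower numbered 10 and 1 for ER exit, 5 and 1 for COPI and ARF, 19 and 1 for SNAREs and tethers, 1 and 0 for the p24 genes, 20 and 1 for ER entry and glycosylation, and 3 and 4 for post-Golgi coats. In kFRA against DH-LMP2A, where 22.7% of all genes were then called, the numbers in the same order were 1 and 2, 3 and 1, 11 and 1, 1 and 1, 7 and 2, and 4 and 3. Without DH-LMP2A replicate 3, 1 gene of ER exit was lower in kFRA than in DH-LMP2A and no gene of the other lists passed there (3.59% of all genes were called). In DH-LMP2A against WT, where 9.3% of all genes were then called, 5 genes of ER exit and 7 of ER entry and glycosylation were higher. There 2 of COPI and ARF were lower, and none of the other lists passed.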

How the data were processed

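Gene expression was measured by poly(A)-selected, strand-specific RNA sequencing of spleen CD138+ plasma cells, 1 library for each of 9 mice. The values the authors deposited are raw counts of reads for each gene, not normalized, and per the submitters' processing notes the tools were STAR 2.4.0a, featureCounts of Subread 1.5.0-p3 and DESeq2, with mm10/GRCm38. The strand setting, the annotation version and the handling of multi-mapping reads are not given in the sources used here. For 44104 symbols found once in GENCODE M21, the deposited coordinates overlapped the GRCm38 gene in 99.85%. Exons of 9 members overlap those of another gene in GENCODE M21, 8 of them on the other strand (Sec23a, Sec24c, Preb, Copa, Copg1, Arf4, Surf4 and Kdelr3) and 1 on the same strand (Golgb1). Further, 5 members have a transcript of another gene at 95% identity over at least 200 bases (Preb, Copg1, Arcn1, Tmed2 and Tmed10; BLAST+ 2.17.0). Their values are uncertain to that extent.

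Counts were tested with edgeR 4.0.16 (R 4.3.3): filterByExpr, TMM, a quasi-likelihood fit of genotype to all 9 libraries, 2-sided F tests of 3 contrasts and Benjamini-Hochberg adjustment over 14199 genes, with a threshold of 0.05. SE is the absolute log2 fold change over the square root of F. The model was tested on simulated data. No 2 replicates agreed within sampling noise (chi-square per degree of freedom 18.3 to 174). Each depth, and with it the floor of 3 counts, covers counting error only. Ratios of related genes used counts plus 0.5 per kb of deposited exon length. Motifs were searched with Python 3.11.15 on both strands of 250 bases upstream of RefSeq start sites. 5 members, Tmed2, Lman1, Kdelr2, Arcn1 and Golgb1, were not searched.

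The members, lists, tests and most alternatives were chosen with earlier results of these data known, and the length minimum of 200 bases after its matches were seen. All 36 members are named. Members past the threshold are given in full, others by counts and ranges or where their paralogue passed or their libraries did not overlap, the latter chosen after their values were seen. Of each pathway list, the 3 genes with the smallest p per comparison are named. Alternatives were other scalings and filters, the Wald test of DESeq2 1.42.0, only the 6 libraries compared, covariates, the replicate number as a block, a threshold of 0.01, a pseudocount of 2, and leaving out each library. Replicate numbers are those of the titles and name different mice.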

Additional observations from a re-analysis of the deposited data

How the results depend on the processing

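Percentages in parentheses are the share of all genes called in the same fit. In DH-LMP2A against WT (2 members as reported), 2 to 3 members passed in the 9 fits that each left out 1 library (6.42% to 16.3%), 4 with the DESeq2 Wald test (17.8%) and 15, 14 of them higher, with library size alone in place of TMM (18.1%). In kFRA against DH-LMP2A (1 member as reported) there were 0 to 10 on leaving out 1 library (2.41% to 22.7%), 0 at an adjusted p under 0.01 (2.16%), with library size alone (3.44%), with only the 6 libraries compared (3.76%), with the covariate of other-cell markers (1.11%) or with that of Xist (3.86%), 2 without a filter on low counts (3.27%), 3 with the DESeq2 Wald test (9.9%) and 7 without kFRA replicate 2 and DH-LMP2A replicate 3 together (19.5%). In kFRA against WT (3 as reported) there were 0 to 19 on leaving out 1 library (8.8% to 38.8%), 0 at an adjusted p under 0.01 (6.87%) or with the covariate of other-cell markers (7.13%), 5 with DESeq2's size factors (18.4%) or without immunoglobulin genes (17.2%), 12 with the DESeq2 Wald test (24.8%), 22 with library size alone (23.1%) and 17 without kFRA replicate 2 and DH-LMP2A replicate 3 together (40.8%).

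With the replicate number as a block, 1 member passed in kFRA against DH-LMP2A (4.82% of all genes called), 7 in kFRA against WT, of which 6 were higher and 1 lower (20.6%), and 3 in DH-LMP2A against WT (14.6%). Mice of the same number did not deviate together: the correlations of their deviations ran from −0.06 to 0.20, −0.21 to 0.16 and −0.03 to 0.16 in the 3 comparisons, so the numbers were not taken to pair the samples.

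Signs were followed over all settings for the 5 members that passed a test and for Kdelr2, and those that changed belonged to log2 values that had not passed. In kFRA against DH-LMP2A with library size alone, Kdelr2 came to −0.0053 and Tmed3 to −0.025, and on leaving out 1 library Tmed3 ran from −0.047 (without kFRA replicate 3) to 0.42. In DH-LMP2A against WT, Preb came to 0.30 with library size alone, 0.0042 with the covariate of other-cell markers and 0.020 without kFRA replicate 2 and DH-LMP2A replicate 3 together, and ran from −0.14 to 0.019 on leaving out 1 library. Among all 36 members without kFRA replicate 2, Sec13, Copa and Lman2 changed sign in kFRA against DH-LMP2A and Sec24d in kFRA against WT, none of them called in either fit. Apart from fewer samples in the fits that leave libraries out, the cause was not tested. With 3 mice per genotype and a median SE of 0.177, log2 differences of the size seen for most members could not be resolved, and Kdelr3 in DH-LMP2A rests on 35 to 71 counts per library.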
